A study of Homo sapiens with 4 samples.

Results

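hsa-miR-21-5p, hsa-miR-221-3p and hsa-miR-222-3p, 3 miRNAs widely described as oncogenic in gastric cancer (GC), were followed through 4 small RNA libraries. They were selected by their names, with earlier results of these data known, and all 3 were listed in all 4 libraries, out of 843 miRNA names in the table. The libraries came from HGC27 and AGS, established human GC cell lines, both with the genotype FN1 3' UTR overexpression, carried stably from a lentivirus. FN1 encodes fibronectin. In each line a biotinylated RNA probe on streptavidin beads was incubated with cell lysate, the beads were washed, and the miRNAs that stayed bound were sequenced. One library was made with the positive RNA probe to the FN1 3'-UTR and another with the negative RNA probe, so the 4 groups (HGC27 negative, HGC27 positive, AGS negative and AGS positive) hold 1 library each. The labels do not say which strand either probe carries. The paper's methods describe antisense RNA on the beads but do not tie it to either probe name. Cells without the overexpressed 3'-UTR, unselected total RNA and further cultures were not analysed here. The values are therefore recovery on beads, the differences below carry no replicate check, and the intervals cover counting error only. A miRNA present in fewer cells and one present at fewer copies per cell cannot be told apart in such bulk material.

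A miRNA is cut from a hairpin precursor, and 1 arm is usually kept in the Argonaute protein as the mature strand. Bases 2 to 8 of that strand, the seed, pair with sites in mRNA 3'-UTRs and lower the output of those mRNAs. miR-21-5p is a well known repressor of the tumour suppressor PDCD4. miR-221-3p and miR-222-3p are neighbours on the X chromosome, are made from a common primary transcript, and repress the cell cycle inhibitor CDKN1B (p27) and the receptor KIT. All of them are commonly raised in solid tumours, gastric cancer among them.

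The mature sequences are shown because the seed decides which members can share targets. They were read from the deposited table, were identical to the RefSeq entries (GRCh38.p14), run 5′ to 3′, and have the seed in capitals.
miR-21-5p: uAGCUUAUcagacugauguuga
miR-221-3p: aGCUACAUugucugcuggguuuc
miR-222-3p: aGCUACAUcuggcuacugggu
miR-221-3p and miR-222-3p had the same seed, GCUACAU, and shared their first 8 bases. Aligned from the 5′ end without gaps they were identical at 11 of 21 positions, so the sequences part after the seed. miR-21-5p had the seed AGCUUAU. In RefSeq the only other mature miRNA with that seed was miR-590-5p, which is not listed in the table used here, so miR-21-5p stood alone in its seed group. No other entry of the table, known or predicted, contained a member, was contained in one, or had the same length and differed from one at a single base. The counts of the members are thus not shared with a listed near-identical entry.

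In GRCh38, miR-21-5p lies on chromosome 17 from 59841273 to 59841294 on the plus strand. GENCODE 29 places it within VMP1, a gene for an endoplasmic reticulum protein of autophagy, in an exon of a VMP1 transcript with a retained intron. miR-221-3p lies on chromosome X from 45746180 to 45746202 and miR-222-3p from 45747036 to 45747056, both on the minus strand and both within an intron of MIR222HG, a long noncoding RNA. The mature sequences are 833 bases apart.

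The count tables summed to between 1296853 and 2955078 tags per library, with 342 to 609 names listed. The lowest count listed was 2. The deposited score is the count per 1000000 tags, rounded to whole numbers. The libraries differed in composition in a way that touches every level and ratio below. miR-372-3p, a miRNA of embryonic stem cells, took 80.8% of the AGS negative counts and 37.5% of the AGS positive counts, but 0.178% and 0.300% of the HGC27 negative and positive counts. A large share of 1 miRNA lowers the share of every other miRNA in that library, so each ratio was also computed with other scalings. Of the blood cell miRNAs checked, 0 of 5 were listed in any library (miR-142-3p, miR-142-5p, miR-223-3p, miR-451a and miR-150-5p). Of the 7 epithelial miRNAs (the miR-200 family, miR-203a-3p and miR-205-5p), 5 to 6 were listed in each library. They took 0.0792% to 0.156% of the counts in HGC27 and 0.229% to 2.50% in AGS, with miR-205-5p listed in none and miR-141-3p in the AGS negative library alone. The endothelial miRNA miR-126-3p had 795 and 1322 counts in HGC27 negative and positive and 20 in each AGS library. Of the 2 neural miRNAs checked, miR-124-3p was listed in no library. The other, miR-9-5p, had 2111 and 4669 counts in HGC27 negative and positive and 11 and 15 in those of AGS. The part of such differences between the lines in the results below was not tested.

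miR-21-5p was the most abundant member in every library. Its counts were 1466 in HGC27 negative, 1962 in HGC27 positive, 2941 in AGS negative and 4309 in AGS positive, which gave scores of 504, 710, 410 and 1008. The AGS negative library was the lowest on this scale and the AGS positive library the highest, and the counting intervals of the 4 scores did not overlap. As a share of all counts, miR-21-5p took 0.101% (Wilson 95% CI 0.0959 to 0.106) in HGC27 negative, 0.151% (0.145 to 0.158) in HGC27 positive, 0.0995% (0.0960 to 0.103) in AGS negative and 0.282% (0.274 to 0.291) in AGS positive. The shares of the negative libraries overlapped within counting error, and those of the positive libraries did not. By rank, miR-21-5p was entry 54 of 574 and 50 of 609 in the HGC27 negative and positive libraries, and 22 of 342 and 17 of 361 in those of AGS. It was thus in the upper part of each list without being among the leading 10 miRNAs of any library.

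miR-221-3p was far less abundant. It had 112, 186, 51 and 270 counts in HGC27 negative, HGC27 positive, AGS negative and AGS positive, or scores of 38, 67, 7 and 63. The AGS negative library stood apart at the low end, and the positive libraries of the lines were close together at the top, with intervals that overlapped. Its share was 0.00771% (Wilson 95% CI 0.00641 to 0.00928) in HGC27 negative, 0.0143% (0.0124 to 0.0166) in HGC27 positive, 0.00173% (0.00131 to 0.00227) in AGS negative and 0.0177% (0.0157 to 0.0199) in AGS positive.

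miR-222-3p was the least abundant of the 3 in every library. Its 29, 36, 19 and 85 counts in the same order gave scores of 10, 13, 3 and 20. The order of the libraries was that of miR-21-5p, but at this depth the HGC27 libraries could not be told from each other, with shares of 0.00200% (Wilson 95% CI 0.00139 to 0.00287) and 0.00278% (0.00201 to 0.00384). The AGS libraries lay below and above them at 0.000643% (0.000412 to 0.00100) and 0.00557% (0.00450 to 0.00688). A score of 3 stands for 19 counts here, because 1 score unit of that library is worth 7.18 counts.

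**Figure D1:**
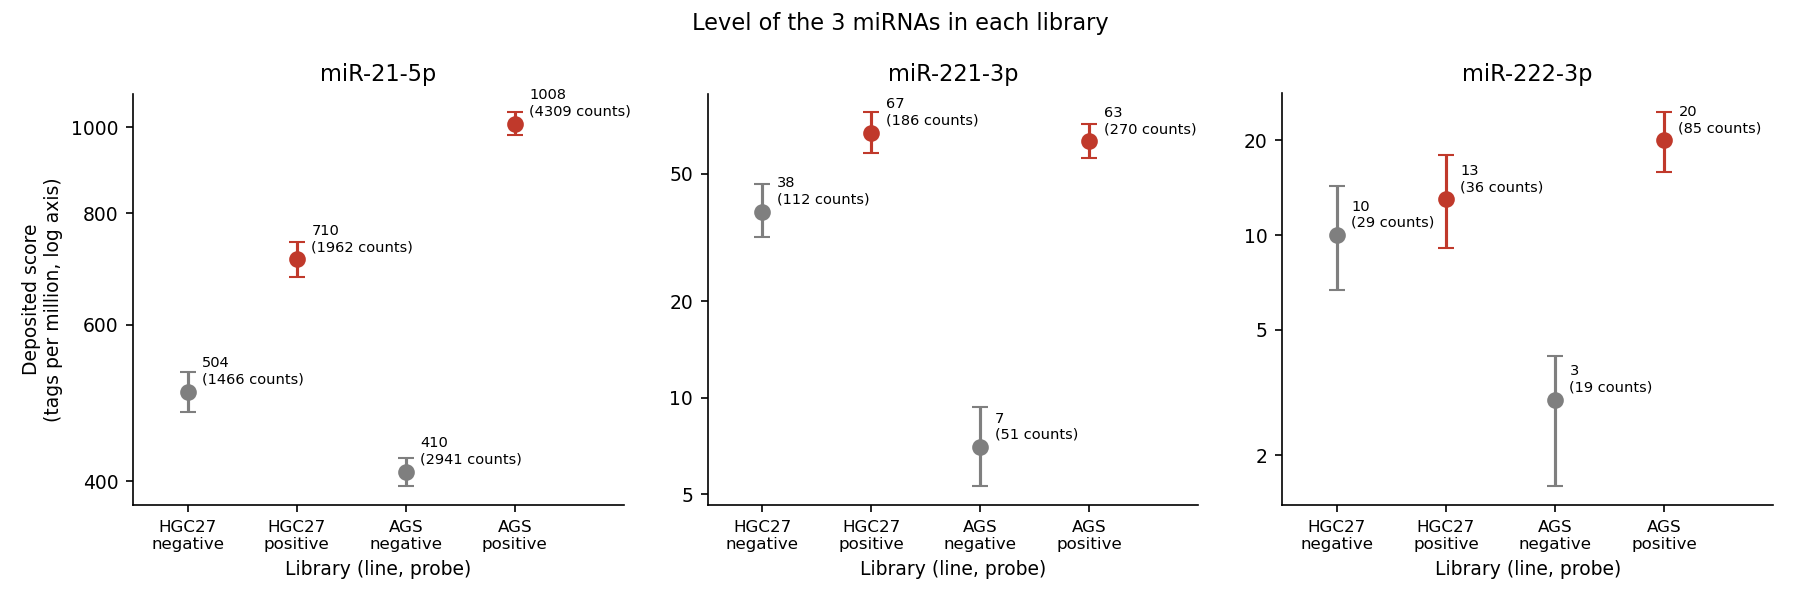
Deposited score (tags per 1000000, log axis with its own range in each panel) of miR-21-5p, miR-221-3p and miR-222-3p in each of the 4 libraries. Points are single libraries (grey, negative probe; red, positive probe), bars are exact Poisson 95% intervals of the counts, and labels give score and count. On this score the AGS negative library is the lowest in each panel, at 410, 7 and 3. That order does not hold for shares of totals that omit miR-372-3p.

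The comparison of the positive with the negative probe asks what the positive probe to the FN1 3'-UTR recovered beyond the negative one. On the deposited score all 3 members were higher with the positive probe in both lines, by less in HGC27 than in AGS. For miR-21-5p this did not hold under every scaling, since in AGS its log2 ratio was -0.20 with totals that omit miR-372-3p. The ratio used is (score + 1) in the positive over (score + 1) in the negative library, and a miRNA was taken as enriched from a ratio of 2 upward and as depleted from 0.5 downward. Brackets give the exact 95% interval of the count ratio before rounding.

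In HGC27 none of the members was enriched by this rule, with 37.5% of all listed miRNAs called enriched and 34.0% called depleted. miR-221-3p had the highest ratio of them, 1.74 (1.37 to 2.23), followed by miR-21-5p at 1.41 (1.32 to 1.51). For miR-222-3p the ratio was 1.27 and its interval, 0.779 to 2.21, included 1. Among the 366 miRNAs with 10 or more counts in either HGC27 library, 67.8%, 61.7% and 59.3% had a lower ratio than miR-221-3p, miR-21-5p and miR-222-3p, respectively. The median log2 ratio of those 366 was -0.12, and the members were at 0.80, 0.49 and 0.35.

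In AGS all 3 were enriched on the deposited score, with 39.4% of listed miRNAs called enriched and 22.7% called depleted. miR-221-3p again had the highest ratio, 8, and its counts of 51 and 270 gave 8.90 before rounding (6.57 to 12.2). miR-222-3p had a ratio of 5.25 from scores of 3 and 20, and 7.52 before rounding (4.53 to 13.1). miR-21-5p had a ratio of 2.45 (2.35 to 2.58). The log2 ratios were 3.00, 2.39 and 1.30, against a median of 0.42 over the 230 miRNAs with 10 or more counts in either AGS library, and 83.5%, 80.0% and 62.6% of these 230 were lower than miR-221-3p, miR-222-3p and miR-21-5p. Of the 230, 93 were enriched (40.4%), and the 3 of 3 rests on few members. It became 2 of 3, without miR-21-5p, at a ratio threshold of 4, and miR-21-5p also fell short of a ratio of 2 under TMM, DESeq2 size factors and totals that omit miR-372-3p (log2 ratios of 0.58, 0.94 and -0.20).

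**Figure D2:**
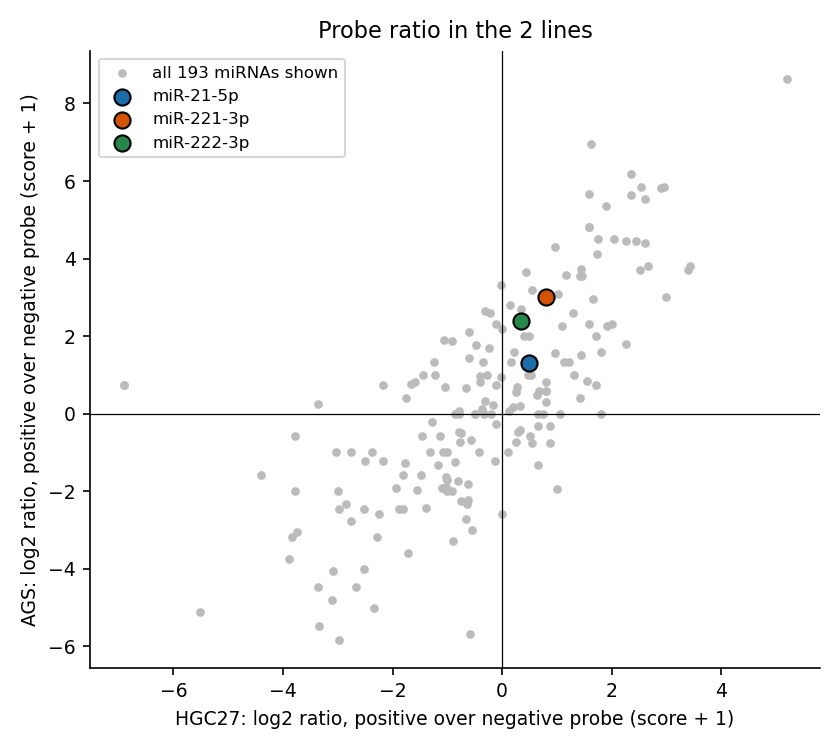
Log2 ratio of (score + 1), positive over negative probe, in HGC27 (horizontal) and AGS (vertical) for the 193 miRNAs with 10 or more counts in either library of both lines. Each grey point is a miRNA and coloured points are miR-21-5p, miR-221-3p and miR-222-3p. The members are among the 72 of the 193 miRNAs (37.3%) in the upper right quadrant, and 29 other miRNAs were at least as high as miR-221-3p in both lines.

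On the deposited scale the positive over negative ratio was larger in AGS than in HGC27 for each member. The difference of the log2 count ratios, AGS minus HGC27, was 0.81 for miR-21-5p (95% counting interval 0.69 to 0.92), 2.35 for miR-221-3p (1.80 to 2.90) and 2.53 for miR-222-3p (1.52 to 3.53). For miR-21-5p this order depended on the scaling, with log2 ratios in AGS and HGC27 of 0.58 and 0.56 under TMM and of -0.20 and 0.59 with totals that omit miR-372-3p. Under those totals miR-221-3p was at 1.64 and 0.89 and miR-222-3p at 1.38 and 0.46, still larger in AGS. With 1 library per group the lines could not be compared beyond counting error.

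The size of the AGS ratios depended on the scaling. Under 5 scalings (the deposited score, the totals of the count table, those totals without miR-372-3p, TMM and DESeq2 size factors), the AGS log2 ratio of miR-221-3p was between 1.64 and 3.28 and that of miR-222-3p between 1.38 and 2.93. For miR-21-5p it was between -0.20 and 1.50, and the negative value, from totals that omit miR-372-3p, turned its direction. The median over all miRNAs moved along, from -0.95 to 0.69. Relative to that median, miR-21-5p was higher by a log2 value of 0.75 to 0.88, miR-221-3p by 2.58 to 2.59 and miR-222-3p by 1.98 to 2.33 under the 5 scalings. In HGC27 the scalings moved the members little, to log2 ratios of 0.49 to 0.68, 0.80 to 0.97 and 0.35 to 0.52 in the same order.

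**Figure D3:**
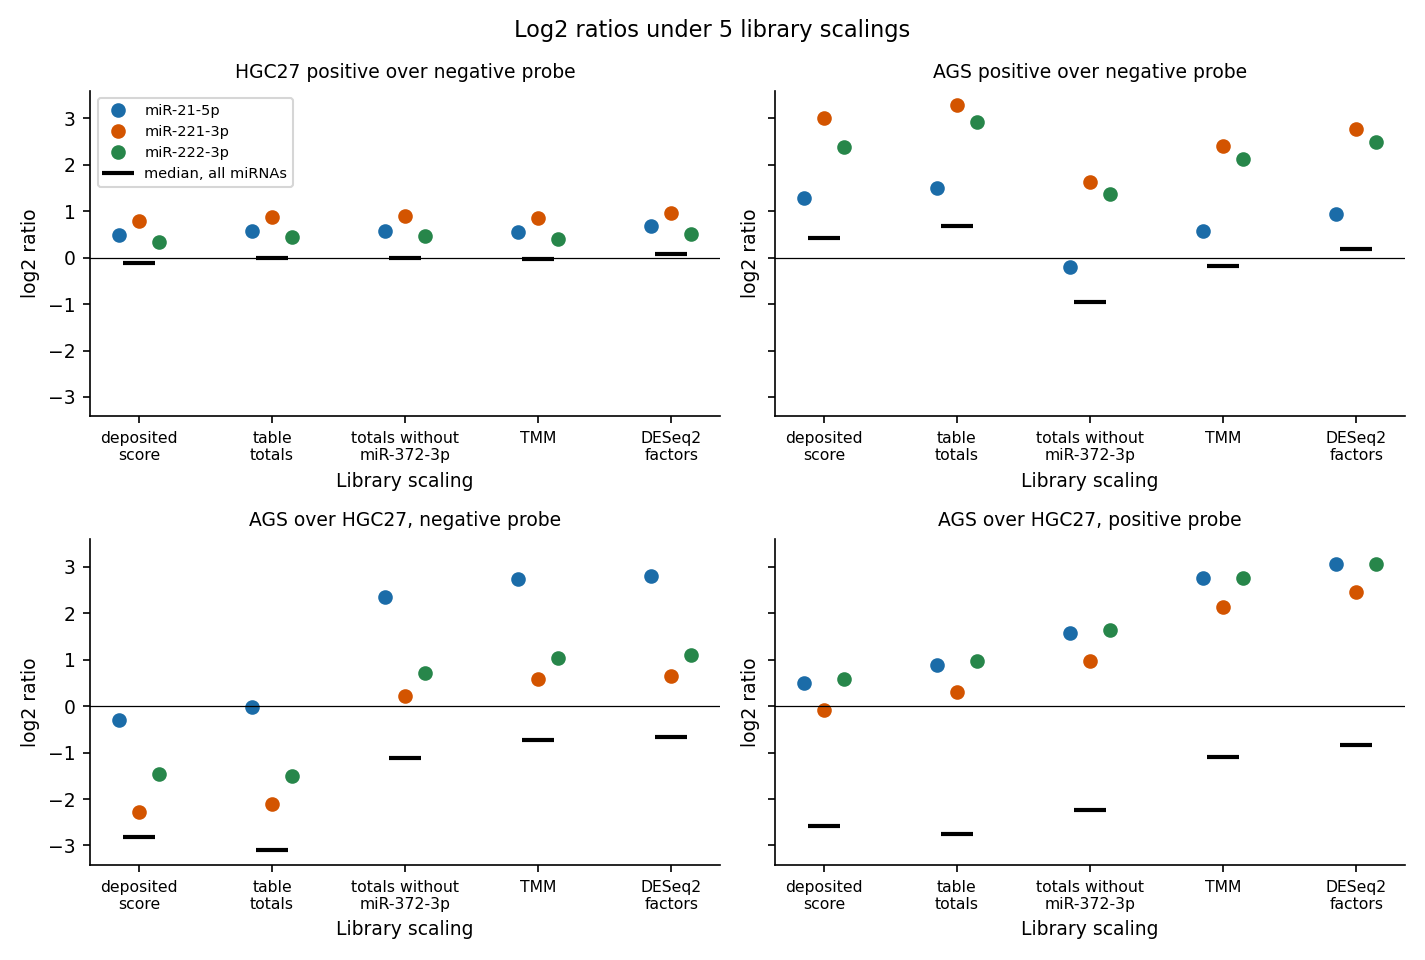
Log2 ratios (vertical) of miR-21-5p, miR-221-3p and miR-222-3p under 5 library scalings (horizontal) for the probe comparison in each line (top) and for AGS over HGC27 with each probe (bottom). Coloured points are single ratios of a library pair, and a black bar is the median over the miRNAs that had 10 or more counts in either library. The HGC27 probe ratios barely move, the AGS over HGC27 ratios with the negative probe cross 0 between scalings, and every member lies above the black bar in all 4 panels.

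The lines were then compared with each probe, as AGS over HGC27. On the deposited score, miR-21-5p was slightly lower in AGS with the negative probe, at a ratio of 0.814 (0.763 to 0.865), and higher with the positive probe, at 1.42 (1.35 to 1.50). miR-221-3p was lower in AGS with the negative probe, at a ratio of 0.205 (0.130 to 0.259 before rounding), while with the positive probe its ratio of 0.941 had an interval of 0.776 to 1.14. miR-222-3p was lower in AGS with the negative probe, at 0.364 (0.141 to 0.489), and had a ratio of 1.50 with the positive probe (1.02 to 2.32). These comparisons use the same libraries as the probe comparison and are not independent of it.

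By the ratio rule, 2 of the 3 members were lower in AGS with the negative probe (miR-221-3p and miR-222-3p), where 86.0% of all listed miRNAs were called lower and 6.02% higher. With 10 or more counts required the background was 85.8% lower and 8.79% higher. With the positive probe 0 of 3 were called either way, against 75.3% lower and 12.9% higher, or 74.7% and 13.0% with 10 or more counts. Most miRNAs were thus lower in AGS on this scale, and the members stood above most of them. With the negative probe 88.8% of the 330 miRNAs at that depth had a lower AGS over HGC27 ratio than miR-21-5p, 67.0% than miR-221-3p and 80.0% than miR-222-3p. With the positive probe these shares were 84.3%, 82.2% and 84.9% of 332.

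With the negative probe, no direction between the lines can be given for any member without a choice of scaling. The same holds for miR-221-3p with the positive probe. With totals that omit miR-372-3p, the negative probe log2 ratios of AGS over HGC27 became 2.36 for miR-21-5p, 0.22 for miR-221-3p and 0.72 for miR-222-3p, each opposite in sign to the -0.30, -2.29 and -1.46 of the deposited score. TMM gave 2.73, 0.58 and 1.04. With the positive probe, miR-21-5p and miR-222-3p stayed above 0 under all 5 scalings, at 0.51 to 3.07 and 0.58 to 3.07, and miR-221-3p ranged from -0.09 to 2.45. Relative to the median of all miRNAs each member was higher in AGS under all 5 scalings, by 2.51 to 3.89 for miR-21-5p, 0.52 to 3.28 for miR-221-3p and 1.35 to 3.90 for miR-222-3p over both probes.

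A ratio between members within a library does not depend on how libraries are scaled. miR-221-3p and miR-222-3p come from hairpins that are transcribed together. miR-221-3p was 3.86 times as frequent as miR-222-3p in HGC27 negative (exact 95% CI 2.55 to 6.03), 5.17 times in HGC27 positive (3.60 to 7.60), 2.68 times in AGS negative (1.56 to 4.81) and 3.18 times in AGS positive (2.48 to 4.10). Between the probes this ratio changed 1.34-fold in HGC27 (95% counting interval 0.778 to 2.30) and 1.18-fold in AGS (0.662 to 2.11), and both intervals included 1. They do not show that the ratio was constant. Between the lines it was lower in AGS with the positive probe, 0.615-fold (0.399 to 0.947), and with the negative probe the 0.695-fold value had an interval of 0.357 to 1.35.

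The proportion of miR-21-5p to miR-221-3p differed more between libraries. It was 13.1 in HGC27 negative (exact 95% CI 10.8 to 16.0), 10.5 in HGC27 positive (9.07 to 12.3), 57.7 in AGS negative (43.7 to 77.6) and 16.0 in AGS positive (14.1 to 18.1). The AGS negative library was far above the other 3. Among those, the AGS positive value was above that of HGC27 positive, 1.51-fold (1.25 to 1.84). From the negative to the positive probe the proportion changed 0.277-fold in AGS (0.204 to 0.375), beyond counting error, and 0.806-fold in HGC27 (0.631 to 1.03), which included 1. Against miR-222-3p the pattern was alike, with 50.6, 54.5, 155 and 50.7 miR-21-5p counts per miR-222-3p count in HGC27 negative, HGC27 positive, AGS negative and AGS positive. The change between the probes was 0.328-fold in AGS (0.199 to 0.540) and 1.08-fold in HGC27 (0.658 to 1.77). In AGS, miR-221-3p and miR-222-3p were thus higher with the positive probe by a larger factor than miR-21-5p, whatever the scaling, and in HGC27 no such difference exceeded counting error.

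**Figure D4:**
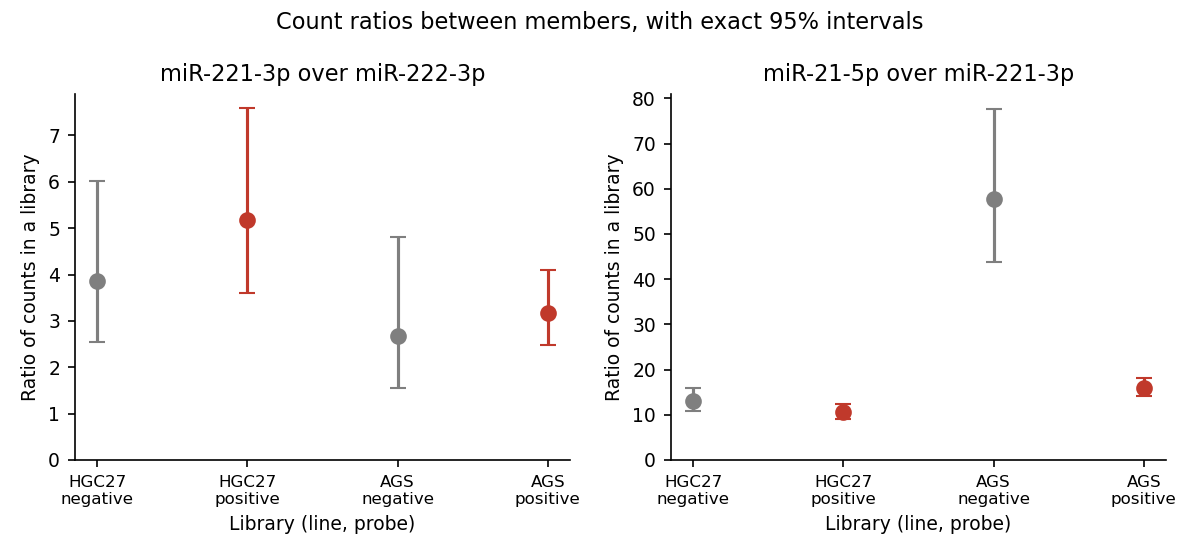
Ratio of counts within each library (linear axes from 0), miR-221-3p over miR-222-3p (left) and miR-21-5p over miR-221-3p (right). Points are single libraries (grey, negative probe; red, positive probe) and bars are exact 95% intervals. The left intervals overlap, with ratios of 2.68 to 5.17, and on the right the AGS negative library stands at 57.7 above 10.5 to 16.0 in the others.

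The other arms of the hairpins had few counts. miR-21-3p, the passenger arm of the miR-21 hairpin, had 5 counts in HGC27 negative and 69 in AGS negative and was not listed in either positive library. In AGS that is at least 13.7-fold lower with the positive probe against a floor of 3 counts in that library, a bound that leaves out the counting error of the 69. The exact 95% interval of the fold, which takes in both counts, ran from 0 to 0.0923, while miR-21-5p of the same hairpin was higher on the deposited score. In HGC27 the 5 counts against a blank gave an interval of 0 to 1.15. The 3p arm made up 2.29% of the counts of both arms in AGS negative (exact 95% CI 1.79 to 2.89) and 0.340% in HGC27 negative (0.110 to 0.791). In the positive libraries it was 0% of 4309 counts in AGS (0 to 0.0856) and 0% of 1962 in HGC27 (0 to 0.188). These shares within a library do not depend on the scaling, and in AGS the intervals of the 2 probes did not overlap. miR-221-5p had 5 counts, all in AGS positive, where miR-221-3p had 270. Against a floor of 3 counts in AGS negative, the bound on the deposited scale was 2.80-fold higher in AGS positive. That bound leaves out the counting error of the 5 counts, and the lower exact 95% limit was 1.54. Neither these miR-221-5p values nor the miR-21-3p fold was computed under another scaling. No direction is drawn for miR-221-5p from these few counts. miR-222-5p was not among the listed names.

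The only fit with more than 1 library on a side took all 4 libraries, with the probe and the line as terms, in edgeR's quasi-likelihood test on the counts with TMM scaling. The lines then stand in for replicates of the probe and the probes for replicates of the line, with 1 residual degree of freedom. With an adjusted p-value under 0.05 as the threshold, 4.06% of the 271 miRNAs tested were called higher with the positive probe and 2.95% lower, and 20.3% had an unadjusted p-value under 0.05. Among the members, 0 of 3 were called, 0 had an unadjusted p-value below that value, and 0 were called by DESeq2 or limma-voom. Over all miRNAs DESeq2 called 32 of 336 and limma-voom 0 of 271, so the limma-voom result is not particular to the members. The log2 fold change for the probe was 0.49 ± 1.22 (SE) for miR-21-5p (edgeR adjusted p = 0.875), 1.57 ± 1.11 for miR-221-3p (edgeR adjusted p = 0.411) and 1.24 ± 1.09 for miR-222-3p (edgeR adjusted p = 0.547). The median over all tested miRNAs was -0.16. Leaving out a line gives a value with no test, and for miR-221-3p it was 2.43 without HGC27 and 0.87 without AGS, for miR-222-3p 2.19 and 0.45, and for miR-21-5p 0.58 and 0.56.

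For the line, 7.75% of the 271 miRNAs were called higher and 22.1% lower in AGS, and 39.1% had an unadjusted p-value under 0.05. Again 0 of 3 members were called by edgeR, although 2 of them, miR-21-5p and miR-222-3p, were below it without adjustment. The log2 fold change of AGS over HGC27 was 2.98 ± 1.32 (SE) for miR-21-5p (edgeR adjusted p = 0.0753), 1.62 ± 1.11 for miR-221-3p (edgeR adjusted p = 0.305) and 2.24 ± 1.12 for miR-222-3p (edgeR adjusted p = 0.123), against a median of -0.63 over all tested. DESeq2's Wald test called 1 member, miR-21-5p (log2 fold change 2.93, adjusted p = 0.0164), and limma-voom called 0. Over all miRNAs DESeq2 called 59 of 320 for the line and limma-voom 82 of 271. The adjusted p of miR-21-5p ranged from 0.0164 to 0.627 over 8 alternatives, and with library totals in place of TMM the values of miR-221-3p and miR-222-3p were -0.91 and -0.28. Leaving out the libraries of a probe, again with no test, gave 2.16 for miR-221-3p without the negative and 0.60 without the positive probe, 2.86 and 1.12 for miR-222-3p, and 2.76 and 2.74 for miR-21-5p.

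Other miRNAs commonly called oncogenic were taken as a list, among them the miR-17-92 and miR-106b-25 clusters, miR-10b-5p, miR-27a-3p and miR-31-5p. The list had lower median probe ratios than the members, and the difference was not tested. Of 22 named, 20 were in the table, without miR-155-5p and miR-301a-3p. In HGC27, 19 had 10 or more counts, and miR-31-5p did not. In HGC27, 1 of the 19 was enriched and 9 were depleted, with 28.1% and 33.3% of all 366 miRNAs at that depth called the same way. Their median log2 ratio was -0.88, below the -0.12 over all 366 and below all 3 members. In AGS, 3 of 15 were enriched and 7 depleted (40.4% and 31.3% of the 230 miRNAs), with a median of -0.74 against 0.42. The lowest in HGC27 was miR-19a-3p, from the miR-17-92 cluster, at -3.78, and the highest was miR-27a-3p at 1.04. In AGS the ends of the range came from that cluster too. miR-17-5p, which represses CDKN1A, was lowest at -4.47, with scores of 176 and 7 in AGS negative and positive and of 2209 and 345 in HGC27. miR-92a-3p was highest at 1.70, with scores of 165 and 539 in AGS and of 2773 and 2341 in HGC27, where it was not enriched. miR-25-3p, named after its values were seen, was above miR-21-5p in both lines, with log2 ratios of 0.97 in HGC27 and 1.57 in AGS. In the fit across lines, edgeR called 4.06% of all 271 tested higher and 2.95% lower. Of the 18 of this list that were tested it called 0 higher and 1 lower, miR-19a-3p (log2 fold change -4.72 ± 1.30 SE, edgeR adjusted p = 0.0206). Its counts were 157 and 8 in HGC27 and 25 and 0 in AGS, so the AGS side of the fold rests on a blank. Of the 18, 7 had an unadjusted p-value under 0.05, against 20.3% of all 271. DESeq2 called 3 of this list, against 32 of 336 over all miRNAs. limma-voom called 0 of the list and 0 of all 271.

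For the line, edgeR called 1 of the 18 higher in AGS, miR-31-5p (edgeR adjusted p = 9.30e-06), which had 430 and 24 counts in AGS negative and positive and 3 and 0 in HGC27. It called 2 lower, miR-10b-5p (log2 fold change -5.24 ± 1.34 SE, edgeR adjusted p = 0.000993) and miR-196a-5p (-6.69 ± 1.53, edgeR adjusted p = 0.000299). miR-10b-5p had 3262 and 4490 counts in HGC27 negative and positive and 24 and 30 in those of AGS. miR-196a-5p had 549 and 281 in HGC27 and 0 and 2 in AGS, so the AGS side of its fold rests on a blank and 2 counts. Over all 271 tested, edgeR called 7.75% higher and 22.1% lower in AGS, and the list was not tested against those shares. miR-10b-5p and miR-196a-5p are encoded in HOX clusters. The list's median log2 fold change was -1.17, where the members' was 2.24.

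For contrast, 19 names of miRNAs commonly called tumour-suppressive were taken, of which 16 were in the table. The names miR-375 and miR-375-3p on this list stand for the same miRNA, which is listed as miR-375-3p. With 10 or more counts, 4 of 12 were enriched and 4 depleted in HGC27 (median log2 ratio -0.63), and 3 of 10 were enriched and 3 depleted in AGS (median 0.50). The background was 28.1% enriched and 33.3% depleted in HGC27 and 40.4% and 31.3% in AGS. miR-203a-3p, an epithelial miRNA, was lowest in both lines at -3.10 and -4.80, and miR-143-3p, a smooth muscle and stromal miRNA, was highest in HGC27 at 2.26. In AGS it shared the highest value, 1.81, with miR-486-5p, which had only 6 and 28 counts there. In the probe fit edgeR called 0 of 10 tested, 1 had an unadjusted p-value under 0.05, DESeq2 called 1 and limma-voom 0. Over all miRNAs edgeR called 4.06% higher and 2.95% lower, and 20.3% had an unadjusted p-value under 0.05. DESeq2 called 32 of 336 and limma-voom 0 of 271. For the line edgeR called 1 higher in AGS (miR-203a-3p) and 4 lower of the 10, where 7.75% and 22.1% of all tested were called. DESeq2 and limma-voom called 5 each, against 59 of 320 and 82 of 271 over all miRNAs. Each list held miRNAs on either side of a probe ratio of 1.

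The miRNAs most like each member over the 4 libraries were found by the root-mean-square difference of log2(score + 1) after centring, among 189 other known miRNAs with 100 or more counts in all. This is a likeness over 4 points that share libraries and scaling. Closest to miR-21-5p was miR-192-5p, a miRNA of gut and liver epithelium, at 0.276 (scores of 120, 118, 116 and 224 in HGC27 negative, HGC27 positive, AGS negative and AGS positive), followed by miR-222-3p at 0.476 and miR-501-3p at 0.605. Closest to miR-221-3p were let-7g-5p at 0.326, miR-28-5p at 0.385 and the liver miRNA miR-122-5p at 0.406, with miR-222-3p the next at 0.461. For miR-222-3p they were miR-28-5p at 0.348, miR-769-5p at 0.384 and miR-221-3p at 0.461. The cluster partners were thus close to each other without being each other's closest.

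The members' seeds were also searched in the FN1 3'-UTR, 1101 bases after the stop codon in the GENCODE 29 transcript used. The complement of the miR-21-5p seed, AUAAGCU, and that of the miR-221-3p and miR-222-3p seed, AUGUAGC, occurred 0 times in the sense strand and 0 times in the antisense strand. Of the 478 distinct seeds of known miRNAs in the table, 7.53% had a match in the sense and 6.90% in the antisense strand. With the 6 letters opposite bases 2 to 7, UAAGCU and UGUAGC, there were 0 matches each in the sense and 1 each in the antisense strand. The share of all known seeds with such a 6-letter match was not computed. The 6-letter counts therefore have no background to be read against. The cloned region was not given base by base in the sources used here, so this window may differ from the probes.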

How the data were processed

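Small RNA of pull-down material was sequenced in 4 libraries. The submitters' processing notes name cutadapt 1.9.3, Novoalign 3.02.12 and hg38 (GRCh38); the miRNA database release is not given in the sources used here. Per miRNA and precursor the authors deposited unnormalized tag counts, 901 rows collapsed here to 843 names, with a blank taken as 0. The authors also deposited a score, tags per 1000000 rounded to whole numbers, whose divisors, recovered from both tables, were 2763267 to 7179129 tags. The tables' totals were 35.7% to 50.0% of these.

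Ratios used score + 1. Count intervals are exact (binomial or Poisson), Wilson for shares, and normal for differences of log2 ratios, all at 95% (Python 3.11.15, SciPy 1.17.1). The fit used edgeR 4.0.16 in R 4.3.3 with TMM and filterByExpr and Benjamini-Hochberg adjustment over 271 miRNAs; the common biological coefficient of variation was 0.612. The SE printed with an edgeR log2 fold change is that fold change without its sign, divided by the square root of the test's F statistic. Alternatives used DESeq2 1.42.0 and limma 3.58.1. The fit and the intervals were run on simulated data. For the fit a pass was required only at a biological coefficient of variation below the 0.612 found here. Those runs do not measure the error rates of the fit on these libraries. Named miRNAs were the members, their other arms, seed partners, the 3 nearest profiles of each and the ends of the lists. The members and lists were chosen with earlier results of these data known. Samples were grouped by their labels.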

Additional observations from a re-analysis of the deposited data

Results flagged for a closer look

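The difference between the lines pointed in opposite directions with the 2 probes for 2 members on the deposited score. For miR-21-5p the log2 ratio of AGS over HGC27 was -0.30 with the negative probe and 0.51 with the positive probe. For miR-222-3p it was -1.46 and 0.58. Each value is 1 library against 1 library, so the difference between the probes was not tested, and under totals that omit miR-372-3p all of these values were above 0. miR-372-3p took 80.8% of the AGS negative counts, and its part in the opposite directions was not tested beyond that scaling.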

How the results depend on the processing

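Values are log2 ratios unless stated, and causes were not tested except where the setting gives them. The scaling of AGS set most shifts. For AGS positive over negative probe, miR-21-5p, miR-221-3p and miR-222-3p were at 0.58, 2.41 and 2.14 under TMM and at -0.20 (direction turned), 1.64 and 1.38 under totals that omit miR-372-3p; miR-21-5p was at 0.94 with DESeq2 factors and 1.50 with table totals, and a pseudocount of 10 gave 2.10 for miR-221-3p and 1.21 for miR-222-3p. In HGC27 the DESeq2 factors moved miR-21-5p to 0.68. For AGS over HGC27 with the negative probe, directions turned for the 3 members in that order under TMM (2.73, 0.58 and 1.04), DESeq2 factors (2.80, 0.65 and 1.10) and totals without miR-372-3p (2.36, 0.22 and 0.72); table totals gave -0.020 for miR-21-5p, and a pseudocount of 10 gave -1.50 for miR-221-3p and -0.62 for miR-222-3p. With the positive probe, values were 2.76, 2.14 and 2.77 under TMM, 3.07, 2.45 and 3.07 with DESeq2 factors, and 1.57, 0.97 and 1.64 without miR-372-3p; table totals gave 0.90 for miR-21-5p and 0.30 for miR-221-3p, whose direction turned under all of these. Without miR-372-3p the shares in AGS negative and positive were 0.519% and 0.451% for miR-21-5p, 0.00900% and 0.0283% for miR-221-3p and 0.00335% and 0.00890% for miR-222-3p.

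At a ratio threshold of 4, miRNAs called higher and lower with the positive probe were 60 and 62 in HGC27 and 63 and 40 in AGS, and those called higher and lower in AGS were 21 and 260 with the negative and 23 and 242 with the positive probe; 2 members in place of 3 were enriched in AGS, and 1 in place of 2 was lower in AGS with the negative probe. With at least 10 counts there were 103 and 122 in HGC27, 93 higher in AGS, 283 lower with the negative probe, and 43 higher and 248 lower with the positive probe.

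In the fit across lines, the 11 higher and 8 lower calls for the probe became 0 and 0 with library totals, limma-voom, no filter, at least 10 counts in every library and no covariate, with 52, 72, 66, 16 and 17 at an unadjusted p-value under 0.05. The calls became 20 higher with DESeq2 factors, 18 higher and 14 lower with DESeq2's Wald test, and 5 lower without miR-372-3p. For the line, the 21 higher and 60 lower calls became 154 lower with library totals, 34 lower with DESeq2, 0 and 0 with no filter (95 at an unadjusted p-value under 0.05), 5 and 10 with at least 10 counts in every library, and 36 lower without miR-372-3p. miR-21-5p passed for the line with DESeq2 factors in edgeR (3.12, adjusted p = 0.0205) and with DESeq2 (2.93, adjusted p = 0.0164, in a range up to 0.627). With library totals miR-221-3p and miR-222-3p turned negative for the line, at -0.91 and -0.28. Leaving out a line or a probe gave values with no test and the direction of the full fit, from 0.45 to 2.43 for the probe and from 0.60 to 2.86 for the line over the 3 members. Merging predicted entries with a member was not run, since no entry qualified. The fit compares the probes within each line, and the setting with no covariate drops that. No paired analysis by replicate number was possible because no group holds more than 1 library and no label numbers replicates. Depth limits miR-222-3p most, with 19 to 85 counts.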
